A study of Mus musculus with 175 samples.

Results

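Il12a, Msra, Akr1b10, Nek6, Angel1, Tmem176a and Tmem176b are 7 genes that stood out in Runx1 P2-hCD4+ common myeloid progenitors (P2+ CMPs) of the mouse fetal liver, and none of them is a classical marker of a myeloid lineage. They were taken by symbol from the deposited gene annotation, each symbol matched 1 gene, and they are 7 of 49585 mouse features. The genes were selected on these same counts, for a large pooled difference between P2+ and P2- CMPs or a high loading on the main axis of variation, so every value of that contrast is given as a description. The megakaryocyte-erythroid progenitors (MEPs) of the same livers entered that choice through the axis of variation, which was computed over all cells, but not through the contrast.

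Single cells were sorted from pooled fetal livers of 2 litters at E14.5. The mice were a cross of C57BL/6 with ICR and carried 1 reporter allele of Runx1, written P1-GFP::P2-hCD4/+ in the protocol and P2-GFP::P2-hCD4/+ in the genotype label. Human CD4 on the cell surface marks transcription from the proximal promoter, P2, of Runx1, so that all 4 populations carried the same alleles and differed only in the gate they fell in. All were Lin- SCA1- C-KIT+ CD16/32low CD41- CD150+ cells, without CD34 in the case of MEPs and with CD34 in the case of CMPs. The filters of the study kept 56 MEPs without the reporter (P2-) and 47 with it (P2+), along with 27 P2- and 42 P2+ CMPs. Where 4 values follow each other, MEPs come before CMPs, and within each gate the P2- cells come before the P2+ cells. Because the livers were pooled, each population is 1 sample, its cells are not replicates, and no p-value was computed.

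The genes have little in common as far as their textbook roles go. Il12a encodes the alpha chain shared by the cytokines IL-12 and IL-35, which in adults come from antigen-presenting and regulatory lymphoid cells. Tmem176a and Tmem176b are neighbouring genes for membrane proteins related to the MS4A family, best known from immature dendritic cells. Msra repairs oxidised methionine, Akr1b10 is an aldo-keto reductase that reduces reactive aldehydes and retinal, Nek6 is a mitotic kinase of the NIMA family, and Angel1 belongs to a family of nucleases that includes the deadenylases of the CCR4-NOT complex. Fetal liver CMPs are immature cells in which transcripts of several myeloid lineages are found side by side.

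The reads counted on mouse genes were between 295064 and 1540631 per cell. The level of a gene is given as counts per 1000000 (CPM) of the pool, that is the summed reads of the gene over the summed reads on all mouse genes, and a difference as the log2 ratio of 2 pooled CPM values with a 95% exact conditional binomial interval. A cell with a read of a gene is counted at an equal depth of 100000 reads drawn from every cell, unless said otherwise, and shares have Clopper-Pearson intervals. The libraries had no molecular identifiers, so PCR copies count as reads. All intervals cover counting error only, of reads for levels and ratios and of cells, taken as independent, for shares, and none covers the spread between animals. The gates were reflected in markers. The summed level of 10 erythroid genes was 1550, 1123, 314.4 and 78.7 CPM, and that of 7 stem and multipotent genes was 11.7, 130, 767 and 1125 CPM.

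Different patterns were visible among the genes, as the plot of the level in every cell shows. Il12a, Msra, Akr1b10, Nek6 and Angel1 were higher in P2+ CMPs than in P2- CMPs by a log2 ratio between 1.69 and 2.74. Tmem176a and Tmem176b were already high in P2- CMPs, exceeded that level in P2+ CMPs by a log2 ratio of 0.51 and 0.63, and were low in both MEP populations. With 5 of 7 genes at a log2 ratio of 1 or more, where 17.4% of all genes with at least 10 reads reached it, the count restates how the genes were picked.

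**Figure D1:**
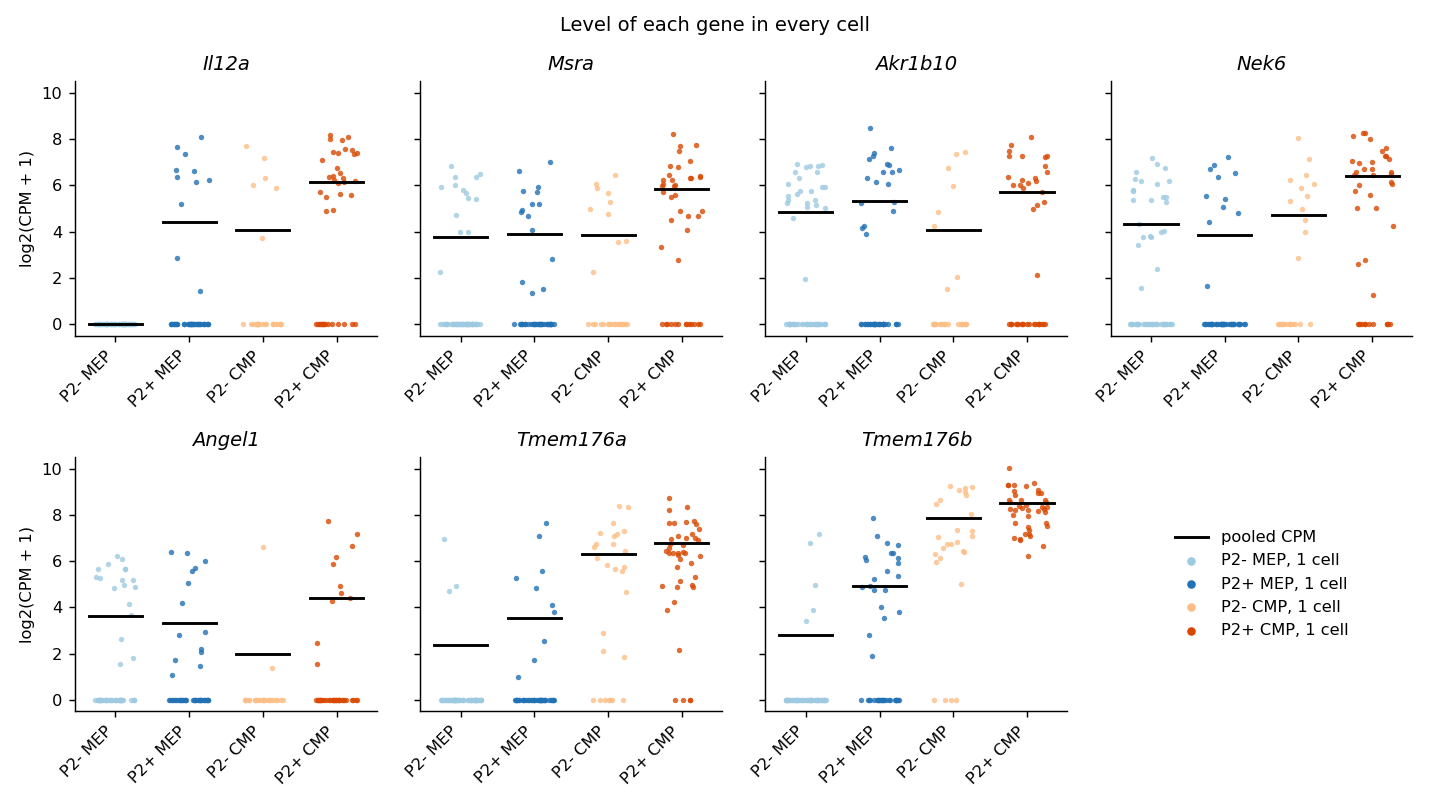
Level of the 7 genes in each of the 172 cells, as log2(CPM + 1) on the vertical axis, by population on the horizontal axis. Each point is 1 cell and the black line is the pooled CPM of the population. Cells without a read lie at 0 for every gene except Tmem176b in P2+ CMPs, where the lowest of the 42 cells had 73.2 CPM.

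The choice itself rested on these values. A filter for ranking kept 4338 genes that at least 25% of the cells had read, both in total and in the higher population, and that reached 50 CPM in the latter. Among them Il12a had the highest log2 ratio of P2+ over P2- CMPs, followed by Msra and Akr1b10, and Nek6 was at rank 5. Gng11, a G protein subunit that was not selected, lay between them at rank 4 with 1.69, and the next gene after Nek6 was Txndc12 with 1.64. Of these 4338 genes, 1.11% reached a log2 ratio of 1, and 4 of the 6 selected genes that passed the filter did. Angel1 did not pass it, since its 20.1 CPM in P2+ CMPs was under 50. Tmem176b and Tmem176a were 4.98% and 8.32% of the way down that ranking and owed their place to the principal component analysis. On PC1, which took 15.2% of the variance of the 500 most variable genes, Tmem176b had the loading of rank 5 towards P2+ CMPs, and Tmem176a that of rank 22. Nek6 and Akr1b10 were 25.4% and 42.6% of the way down, and Il12a, Msra and Angel1 were not among the 500 genes.

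Il12a, the cytokine chain, was the one gene of the 7 with 0 reads in a whole population. It lies on chr3:68690644-68698547 (GRCm38), on the plus strand, and none of its 1701 exon bases is shared with another annotated gene. It had 0 reads in the 56 P2- MEPs, and its level was 20.1 CPM in their P2+ counterparts, 15.8 CPM in P2- CMPs and 70 CPM in P2+ CMPs. By pooled level the order was P2+ CMP, P2+ MEP, P2- CMP and P2- MEP. The intervals of P2+ MEPs (18.6 to 21.7 CPM) and P2- CMPs (14 to 17.7 CPM) came close without overlapping, but they cover counting error of reads only. Before thinning, these reads came from 11 P2+ MEPs and 6 P2- CMPs. The standard deviation over cells was 57.4 CPM in P2+ MEPs and 50.5 CPM in P2- CMPs. Whether P2+ MEPs lie above P2- CMPs beyond this spread was not tested. Among the P2+ CMPs the lowest cell had 0, the median cell 49.7 and the highest 289.1 CPM, whereas the median cell of each other population was at 0.

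A read of Il12a was found in 26 of 42 P2+ CMPs (61.9%, 45.6 to 76.4) against 6 of 27 P2- CMPs (22.2%, 8.62 to 42.3). Of the 47 P2+ MEPs, 10 had one (21.3%, 10.7 to 35.7), and of the 56 P2- MEPs 0 (upper bound 6.38%). The cells with a read were at similar levels in the 3 populations that had them, with medians of 71.2 CPM in P2- CMPs, 80.5 CPM in P2+ MEPs and 88.0 CPM in P2+ CMPs. Populations thus differed more in the share of cells with a read of Il12a than in the median level of such cells. Whether cells without a read lacked the transcript or held too little for it to be read was not tested. In CMPs the log2 ratio was 2.15 (1.97 to 2.33). In MEPs, where 0 reads are taken as at most 3, Il12a was at least 7.68 higher in P2+ cells on the log2 scale, from 635 reads in 11 cells of which the top cell held 152.

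The reporter marks Runx1 transcription, so the letters around the Il12a start sites are shown with matches to the RUNX core TGTGGT in capitals, on either strand. RefSeq gives Il12a 2 start sites on GRCm38.p6, and the 250 bases ahead of each lie outside annotated exons. The first stretch, chr3:68690394-68690643, holds no match and the second, chr3:68691174-68691423, holds 1.
Il12a upstream of the first start: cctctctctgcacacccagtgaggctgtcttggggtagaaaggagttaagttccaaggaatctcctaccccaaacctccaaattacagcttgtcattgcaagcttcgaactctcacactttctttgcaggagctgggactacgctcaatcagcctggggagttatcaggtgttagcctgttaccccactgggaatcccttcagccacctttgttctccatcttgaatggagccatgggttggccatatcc
Il12a upstream of the second start: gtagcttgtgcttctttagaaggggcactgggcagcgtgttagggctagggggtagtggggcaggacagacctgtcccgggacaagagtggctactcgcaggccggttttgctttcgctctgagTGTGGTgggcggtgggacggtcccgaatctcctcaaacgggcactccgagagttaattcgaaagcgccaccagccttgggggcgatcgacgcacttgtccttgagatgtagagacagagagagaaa
Neither window of 300 bases held the GATA core AGATAA or the ETS core GAGGAA. Over all 32851 RefSeq windows of that length, 16.8% held TGTGGT, 11.2% AGATAA and 28.3% GAGGAA, so a single match of this kind is common. Akr1b10 and Nek6 windows held none of the 3 cores. Of the 5 windows of the Tmem176 genes, which overlap each other, 3 held GAGGAA once or more and 0 held TGTGGT or AGATAA.

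The partners that an IL-12 family cytokine needs were unevenly present. Il12b, which pairs with Il12a to make IL-12, and Il23a had 0 reads in every population. Ebi3, which pairs with Il12a to make IL-35 and with Il27 to make IL-27, was at 0, 2.06, 56.8 and 82.1 CPM in the usual order. Its rise thus followed the CMP gate, with a log2 ratio of 0.53 (0.43 to 0.63) between P2+ and P2- CMPs, where Il12a had 2.15. Il27 was read in 1 P2- CMP alone, at 1.75 CPM for that population.

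In P2+ CMPs, Ebi3 was read in 35 and Il12a in 26 of the 42 cells, and 21 cells had both. Over these cells the levels had a Spearman rho of -0.39, and -0.27 without thinning as a description of 42 cells of 1 pool. In P2- CMPs 5 of the 6 cells with Il12a had Ebi3. In P2+ MEPs, 2 of 10 did. These co-detections were chosen for counting after the values of the list had been seen.

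The receptors and signalling genes of the family varied without a common direction in CMPs. Of the other 14 genes of the list, 11 had at least 10 reads in CMPs, 1 had a log2 ratio of at least 1 and 3 had one of -1 or less, where 17.4% and 14.7% of all genes did, with a median of -0.03 against -0.00 over all genes. The gene that was higher was Il27ra, the specific chain of the IL-27 receptor, at 27.9 CPM in P2+ and 8.40 CPM in P2- CMPs (log2 ratio 1.73, 1.49 to 1.99). Il27ra was also higher in P2+ than in P2- MEPs, by 2.19 (1.90 to 2.49). Il6st, the gp130 chain shared by many cytokine receptors, went the other way in CMPs with -1.63 (-1.84 to -1.43), at 8.86 against 27.5 CPM. Il12rb1 and Il27 were the others that were lower. Stat4, which carries the signal of the IL-12 receptor, was at 0.07, 2.76, 25.1 and 33.3 CPM and so followed the CMP gate. In MEPs, 4 of 10 genes of the list with enough reads had a log2 ratio of at least 1 (Ebi3, Il12rb2, Il27ra and Stat4), beside 20.4% of all genes, and 1 had one of -1 or less, beside 12.5%. The latter was Il12rb1, at 4.08 CPM in P2- MEPs and 0 reads in P2+ MEPs.

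Because Il12a is known from antigen-presenting cells, the markers of those cells were read in the same libraries. Of 10 macrophage and dendritic genes, 7, 6, 7 and 6 had 0 reads in the successive populations, among them Adgre1, C1qa, C1qb, C1qc and Itgax in all 4. Their summed level was 12.2, 34.3, 15.1 and 24.6 CPM in that order, and ranged from 0 to 191 CPM over the P2+ CMPs. Genes of antigen presentation were among those with reads. Cd74, the invariant chain of class II molecules, was read in 4 P2+ CMPs alone, at 3.41 CPM for that population. H2-Ab1, a class II chain, was at 10.9, 24.04, 8.84 and 15.2 CPM, with a log2 ratio of 0.79 (0.53 to 1.05) in CMPs. The rho of Il12a with the summed level over P2+ CMPs was -0.00. Of 7 lymphoid markers, 7 had 0 reads in P2+ CMPs. Over the 47 P2+ MEPs, cells with more Il12a tended to have a lower erythroid sum (rho -0.45) and a higher megakaryocytic sum (rho 0.44). The same values were 0.07 and 0.13 over P2+ CMPs and -0.30 and -0.09 over P2- CMPs, all as descriptions over cells of 1 pool. Over all 172 cells the genes most like Il12a, of 9237 genes read in at least 25% of cells, were Tmsb4x (rho 0.58), Coro2a (0.55) and Ctla2a (0.52).

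Tmem176a and Tmem176b lie head to head on chromosome 6. Tmem176b spans chr6:48833818-48841496 on the minus strand and Tmem176a chr6:48840919-48847071 on the plus strand, and 81 exon bases belong to both. The counting ignored strand, so reads that fell wholly in that overlap could not be given to either gene. Of the 70-base windows of their transcripts, 0 were shared with another gene in sequence.

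Tmem176b was low in MEPs, at 5.88 CPM without the reporter and 29 CPM with it, and reached 234.6 CPM in P2- and 363.4 CPM in P2+ CMPs. All 42 P2+ CMPs had a read of it, from 73.2 CPM in the lowest to 310.5 CPM in the median and 1034 CPM in the highest cell, and among P2- CMPs it was read in 23 of 27 (85.2%, 66.3 to 95.8). In MEPs it was read in 21 of 47 P2+ cells (44.7%, 30.2 to 59.9) but in 5 of 56 P2- cells (8.93%, 2.96 to 19.6). No other gene of the 7 was read in every cell of a population.

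Tmem176a stood lower, at 4.25, 10.7, 77.9 and 111 CPM. It was read in 37 of 42 P2+ CMPs (88.1%, 74.4 to 96) and 17 of 27 P2- CMPs (63%, 42.4 to 80.6). With a minimum of 5 reads the shares were 66.7% (50.5 to 80.4) and 63% (42.4 to 80.6). Its order of populations was the same as that of Tmem176b. Between the reporter states of MEPs the log2 ratio was 2.30 (2.07 to 2.54) for Tmem176b and 1.33 (1.03 to 1.63) for Tmem176a. The Tmem176a value rested on few cells, since 57.6% of the reads in P2+ MEPs and 80.8% of those in P2- MEPs belonged to 1 cell each. Without both cells it was 2.48, and without only the P2+ cell 0.14.

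The larger step for this pair was between the gates. P2+ CMPs exceeded P2+ MEPs by a log2 ratio of 3.65 (3.55 to 3.74) for Tmem176b and 3.38 (3.22 to 3.54) for Tmem176a, and P2- CMPs exceeded P2- MEPs by 5.32 (5.10 to 5.54) and 4.20 (3.94 to 4.47). CD34, on which that gate was set, had a transcript with a rho of 0.79 with Tmem176b over cells. For Tmem176a the closest gene over all 172 cells was Tmem176b itself (rho 0.74). Such values over all cells include the difference between the gates, and its part in them was not tested. Within populations the rho of Tmem176b with Cd34 was -0.04, 0.05, 0.51 and 0.29 in the usual order.

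Within populations the tie between Tmem176a and Tmem176b was looser. Before thinning, 1 of 56, 8 of 47, 18 of 27 and 38 of 42 cells had reads of both. The rho after thinning was 0.22, 0.39, 0.28 and 0.22 in the same order. Tmem176b was the more abundant in 35 of the 38 P2+ CMPs with both, by a median of 3.46 times in reads, and the pooled ratio was 3.28 in P2+ CMPs and 3.01 in P2- CMPs. Per kilobase of exon, taken over all annotated transcripts of each gene, the pooled ratio was 5.27 and 4.84.

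**Figure D2:**
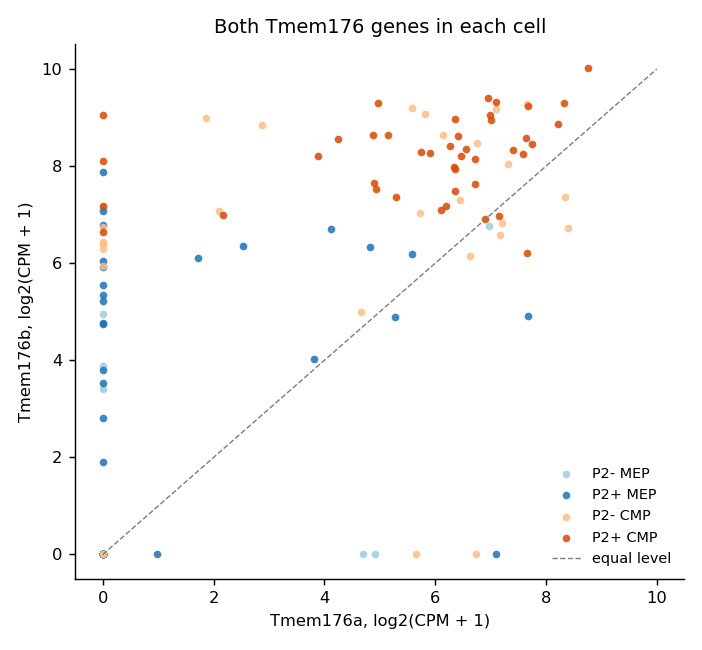
Tmem176a (horizontal axis) and Tmem176b (vertical axis) in each of the 172 cells, both as log2(CPM + 1). Each point is 1 cell, coloured by population, and the dashed line marks equal levels. Most P2+ CMPs lie above the line, and of the 47 P2+ MEPs 23 lie at the origin and 14 on the vertical axis, with Tmem176b and no Tmem176a.

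The pair was also set against sums of lineage markers over the cells of each population, as descriptions with no test. Over the 27 P2- CMPs, Tmem176b had a rho of 0.66 with the sum of stem and multipotent genes and of -0.66 with the erythroid sum, and Tmem176a had 0.45 and -0.60. Over P2+ CMPs the same values were 0.38 and -0.25 for Tmem176b and 0.03 and -0.25 for Tmem176a. With the mast and basophil sum, Tmem176b had -0.39 over P2+ CMPs and -0.35 over P2- CMPs. That sum was nearly all Cpa3, which was read in 7 P2+ and 9 P2- CMPs, and its median cell was at 0 in both. With the megakaryocytic sum the rho was -0.31 for Tmem176b and -0.15 for Tmem176a over P2+ CMPs, and 0.33 and 0.40 over P2- CMPs. Over P2- CMPs, Tmem176b also had 0.46 with the hepatocyte sum. Alb, Afp and Apoa1, the only genes of that sum with a read there, were found in 1, 3 and 4 of these cells. In both MEP populations the rho of Tmem176b with the erythroid sum was -0.32. Tmem176b also had a rho of 0.35 with the number of reads of a cell over P2+ CMPs, and 0.32 over P2- CMPs. The rho of Tmem176b with the macrophage and dendritic sum was -0.00 over P2+ CMPs and -0.21 over P2- CMPs. The related MS4A genes were nearly silent, since 4 of the 12 on the list had at least 10 reads in CMPs and none of the 12 exceeded 9.38 CPM in any population.

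Msra, on chr14:64122625-64455903 (minus strand), was confined to no population but was raised in 1. It was at 12.5 and 13.9 CPM in the MEPs and at 13.6 CPM in P2- CMPs, with intervals that overlapped, and at 57.2 CPM (54.7 to 59.7) in P2+ CMPs. A read was found in 26 of 42 P2+ CMPs (61.9%, 45.6 to 76.4) and in 9 of 27 P2- CMPs (33.3%, 16.5 to 54), and among MEPs in 13 of 47 P2+ (27.7%) and 14 of 56 P2- cells (25%). The intervals of the shares in P2+ and P2- CMPs overlapped. P2+ CMPs with a read of Msra before thinning had a median of 65.8 CPM, against 34.5 CPM in such P2- CMPs. Both the share of cells and this median were higher in P2+ CMPs, in the contrast by which the gene was chosen. In MEPs the log2 ratio was 0.15 (-0.05 to 0.35), an interval that includes 0, and its sign depended on the weighting of cells: it was -0.13 with equal weight for every cell, -0.12 without the top cell of each population and -0.32 without that of P2+ MEPs alone.

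The enzymes that work with Msra had log2 ratios between -1.50 and 0.33 in CMPs. Of 8 other genes of methionine sulfoxide repair, all with at least 10 reads in CMPs, 0 had a log2 ratio of at least 1 and 1, Txnrd3, had one of -1 or less (-1.50, -1.75 to -1.24), counts that lie near the 17.4% and 14.7% of all genes. Msrb1 and Msrb2, which repair the other stereoisomer of oxidised methionine, were at -0.06 (-0.36 to 0.24) and -0.56 (-0.69 to -0.44). Txn1, the thioredoxin that recycles the enzyme, was read in all cells of all populations and was at 878 CPM in P2+ and 795 CPM in P2- CMPs. The genes on either side of Msra with a read, Pinx1 and Kif13b, had log2 ratios of -0.82 and -0.18 in CMPs.

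Akr1b10 (chr6:34384218-34396950, plus strand) was spread most evenly over populations. Its pooled level was 27.8, 39.6, 15.9 and 51.4 CPM in the usual order, so that P2- CMPs and not the MEPs were the lowest. A read was found in 21 of 42 P2+ CMPs (50%, 34.2 to 65.8) and 7 of 27 P2- CMPs (25.9%, 11.1 to 46.3). In MEPs it was found in 19 of 47 P2+ (40.4%, 26.4 to 55.7) and 24 of 56 P2- cells (42.9%, 29.7 to 56.8). All 4 of these intervals overlapped. The log2 ratio in CMPs was 1.69 (1.52 to 1.88) and in MEPs 0.51 (0.38 to 0.63). Between the gates it was 0.38 (0.27 to 0.48) in P2+ cells and -0.81 (-1.01 to -0.62) in P2- cells.

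The close paralog Akr1b8 was at 0 reads in both P2+ populations, at 3.10 CPM in P2- MEPs and at 1.47 CPM in P2- CMPs. Of the 3593 windows of 70 bases in Akr1b10 transcripts, 11 also occur in Akr1b8 (0.306%), so few reads could have been lost between these genes. Of the 15 other aldo-keto reductases, 7 had at least 10 reads in CMPs, and 1 of them, Akr1c13, had a log2 ratio of at least 1 (1.26, 1.02 to 1.51) and another, Akr1b8, one of -1 or less, again near the 17.4% and 14.7% of all genes. Akr1c12, its neighbour in the family, was at 0.94 (0.67 to 1.22). Akr1a1, which was the most abundant member of the list, was at 533 CPM in P2+ and 416 CPM in P2- CMPs. The median of the 7 was 0.48.

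Nek6 (chr2:38511643-38594606, plus strand) differed in opposite directions in the CMPs and MEPs. In CMPs its level was 83.0 CPM in P2+ and 25.7 CPM in P2- cells, a log2 ratio of 1.69 (1.55 to 1.83). In MEPs it was 13.4 CPM in P2+ and 19.3 CPM in P2- cells, a log2 ratio of -0.53 (-0.71 to -0.35). A read was found in 29 of 42 P2+ CMPs (69%, 52.9 to 82.4) and 12 of 27 P2- CMPs (44.4%, 25.5 to 64.7), and among MEPs in 10 of 47 P2+ (21.3%, 10.7 to 35.7) and 19 of 56 P2- cells (33.9%, 21.8 to 47.8). The intervals of the shares overlapped within each compartment. With a minimum of 5 reads the shares in CMPs were 54.8% (38.7 to 70.2) of P2+ and 11.1% (2.35 to 29.2) of P2- cells, as a description of the contrast by which the gene was chosen. The median P2+ CMP was at 64.9 CPM while the median cell of the other populations was at 0.

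The last exons of Nek6 overlap Psmb7, a proteasome subunit gene on the opposite strand, over 405 bases (3.78% of the Nek6 exon bases). Psmb7 was at 98.7, 64.2, 107 and 122 CPM, with a log2 ratio of 0.19 (0.12 to 0.27) in CMPs and -0.62 in MEPs. The counting ignored strand, so reads that fell wholly in the shared bases could not be given to either gene. How many reads of Nek6 were lost in this way was not tested. Of the 10 other NIMA kinases, 7 had at least 10 reads in CMPs and 1, Nek3, had a log2 ratio of at least 1 (1.43, 1.08 to 1.79), near the 17.4% of all genes. Nek7, the closest relative of Nek6, was at 0.15 (0.00 to 0.31), and Nek9, the kinase that activates both, at -0.50 (-0.62 to -0.38). Nek2, another mitotic member, was at -0.37 (-0.54 to -0.20).

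Angel1 (chr12:86700502-86726460, minus strand) had the largest ratio of the 7 genes in CMPs and the thinnest data. Its pooled level was 11.2, 9.09, 3.0 and 20.1 CPM in the usual order. The log2 ratio in CMPs was 2.74 (2.34 to 3.16), but 54 of the 55 reads in P2- CMPs belonged to 1 cell, and 41.8% of the 729 reads in P2+ CMPs to another. Without both cells it was 7.75 (5.27 to 13.06), against 1 read left in P2- CMPs, and without only the P2+ cell it was 2.02.

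A read of Angel1 was found in 10 of 42 P2+ CMPs (23.8%, 12.1 to 39.5) and 1 of 27 P2- CMPs (3.70%, 0.0937 to 19). Of the MEPs, 9 of 47 P2+ (19.1%, 9.15 to 33.3) and 15 of 56 P2- cells (26.8%, 15.8 to 40.3) had one. The share was lowest in P2- CMPs, but its interval overlapped those of the other populations. In MEPs the log2 ratio was -0.30 (-0.53 to -0.07), and -0.11 without the top P2- cell. Angel2, its paralog, was read in more cells and was at -0.37 (-0.47 to -0.28) in CMPs. Of 9 other nucleases of this fold and cap-binding genes, 0 had a log2 ratio of at least 1 in CMPs, and Noct and Eif4ebp2 had one of -1 or less, at -1.56 and -1.42, beside the 17.4% and 14.7% of all genes.

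**Figure D3:**
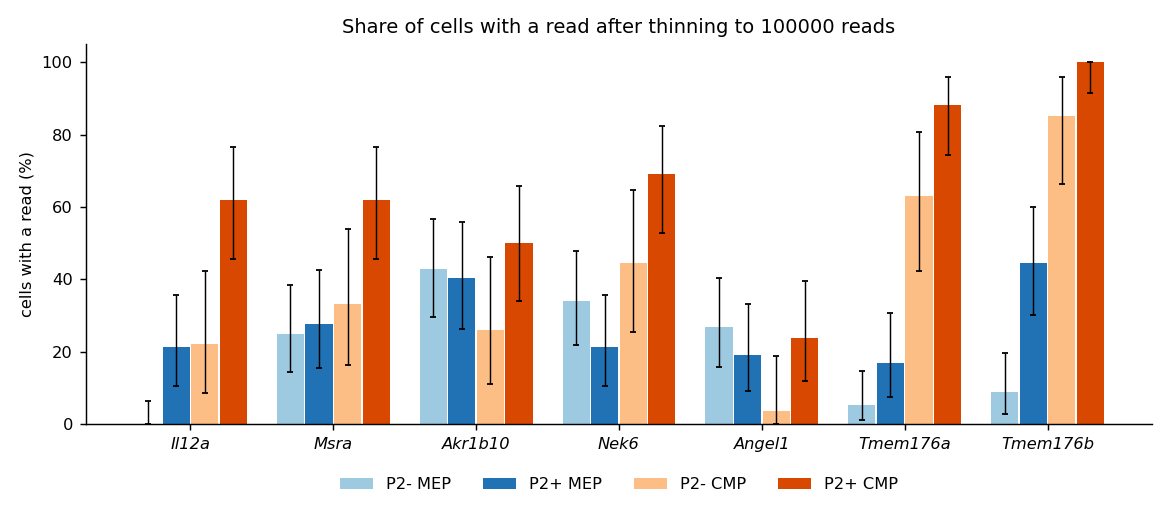
Share of cells with a read of each gene (vertical axis, percent) in each population after thinning to 100000 reads, with 95% Clopper-Pearson intervals as error bars. Il12a is at 0 in P2- MEPs, Tmem176b reaches 100% in P2+ CMPs, and Akr1b10 and Angel1 have similar shares in P2+ CMPs and both MEP populations.

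The reporter contrast in MEPs was no criterion of the selection, but the MEPs took part in PC1, by which both Tmem176 genes were chosen, so the count is a description. A log2 ratio of at least 1 was found for 3 of the 7 genes (Il12a, Tmem176a and Tmem176b), where 20.4% of all genes with at least 10 reads reached it. Without the top P2+ cell, Tmem176a was at 0.14 and the count was 2 of 7. Akr1b10 and Msra were at 0.51 and 0.15, and Nek6 and Angel1 were below 0. With P2+ CMPs set against P2+ MEPs, 6 of the 7 genes reached a log2 ratio of 1, all but Akr1b10, beside 23.2% of all genes. With P2- CMPs set against P2- MEPs, 3 of 7 did (Il12a, Tmem176a and Tmem176b), beside 25.8% of all genes, and Angel1 was lower in P2- CMPs by -1.90 (-2.34 to -1.48). These comparisons share populations with the CMP contrast that chose the genes, and Il12a in both P2- MEP comparisons is a lower bound.

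**Figure D4:**
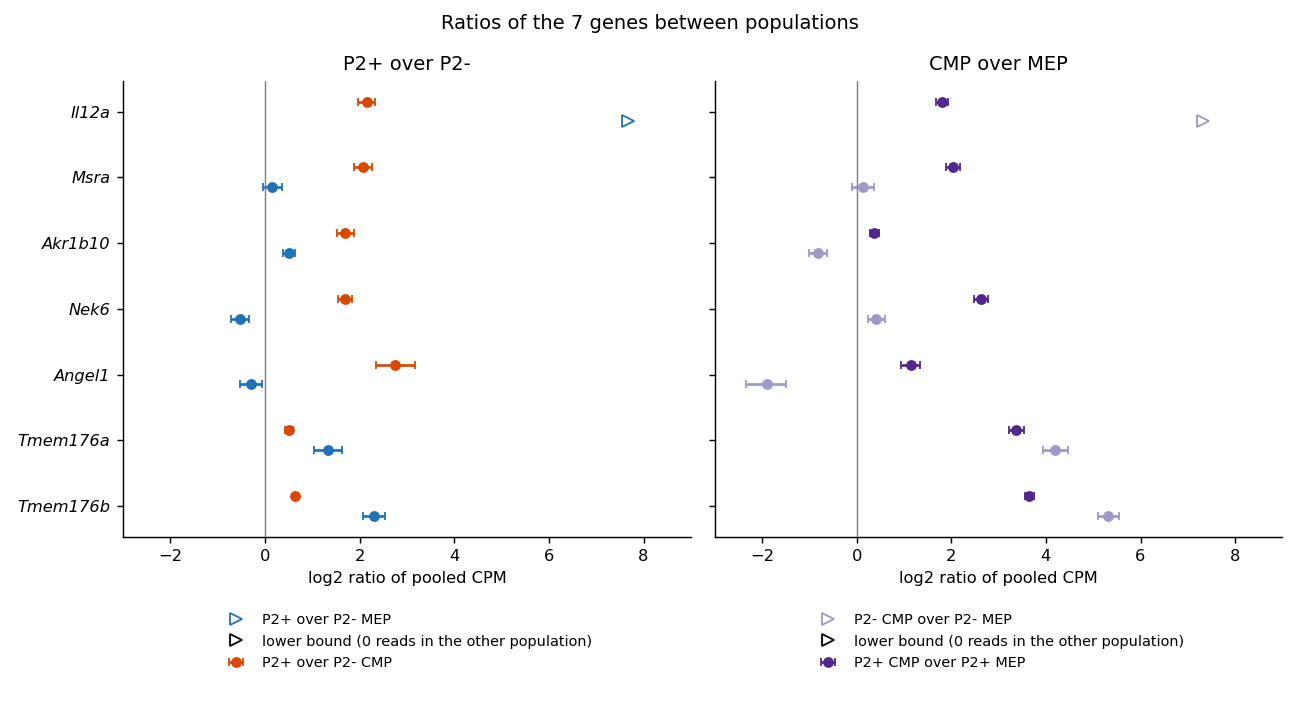
Log2 ratio of pooled CPM (horizontal axis) for each gene (vertical axis), P2+ over P2- at the left and CMP over MEP at the right. Points are ratios with 95% exact conditional binomial intervals and open triangles are lower bounds where 1 population had 0 reads. Nek6 and Angel1 lie on opposite sides of 0 in CMPs and MEPs, and the Tmem176 genes lie further to the right in the CMP over MEP panel.

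Seen per cell, the number of the 7 genes with a read had medians of 1, 2, 3 and 5. At least 4 of them were read in 34 of 42 P2+ and 8 of 27 P2- CMPs, in 8 of 47 P2+ MEPs and in 0 of 56 P2- MEPs. The median number of all genes read in a thinned cell was 5951.5, 5467, 5710 and 5916, so it did not follow the same order. Since the genes were picked for P2+ CMPs, the place of that population is fixed by the choice.

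**Figure D5:**
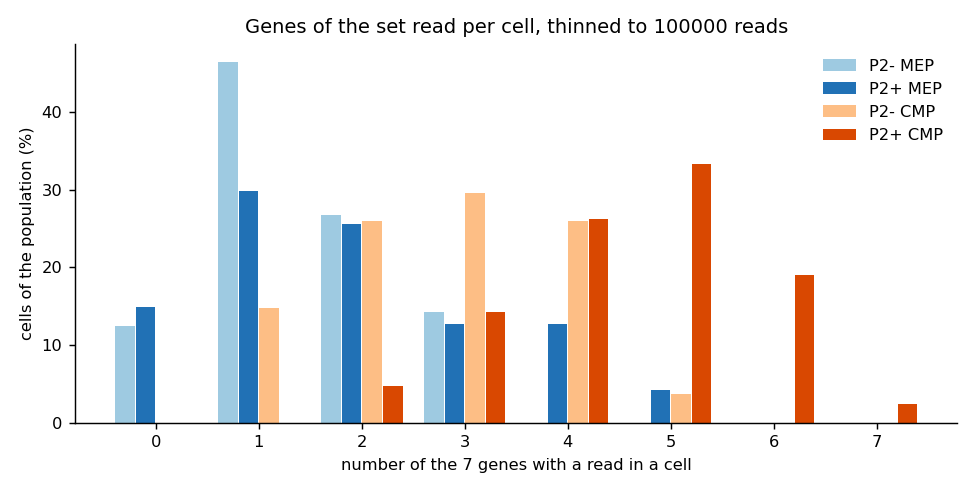
Number of the 7 genes with a read in a cell (horizontal axis) and the percent of the cells of each population with that number (vertical axis), after thinning to 100000 reads. P2- MEPs peak at 1 gene and P2+ CMPs at 5 genes, and 1 P2+ CMP had all 7.

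Pairs of the genes were followed over single cells. Over the 20 pairs other than the Tmem176 pair, the rho within P2+ CMPs was between -0.27 and 0.28 with a median of 0.02, and in P2- CMPs between -0.23 and 0.22 with a median of 0.06. Il12a and Msra, each read in 26 of the 42 P2+ CMPs, were read together in 15, and 5 cells had neither (rho -0.27). Msra and Angel1 had the highest value among P2+ CMPs, with 9 of the 10 Angel1 cells also having Msra (rho 0.28). In P2+ MEPs the highest values were those of Nek6 with Tmem176b (0.37) and Msra with Akr1b10 (0.36). Reads of 1 gene in a cell are few at this depth, so small correlations cannot be read as absent ones.

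Levels were also set per kilobase of exon, with the exon bases of all annotated transcripts of a gene as its length. The order between genes depends on that length, which was greatest for Nek6 with 10714 bases. In P2+ CMPs Tmem176b led with 153 CPM per kilobase. Il12a followed with 41.1 and Tmem176a with 29.1, then Akr1b10 with 14.5, Msra with 13.3, Nek6 with 7.74 and Angel1 with 4.49 CPM per kilobase. In P2- CMPs Tmem176b and Tmem176a led with 98.9 and 20.5, and Il12a was at 9.27. In P2- MEPs the order was different, with Akr1b10 at the top with 7.87 CPM per kilobase and Il12a at 0.

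Rank likeness over cells was also listed for the other genes. Msra was most like Ldhb (rho 0.38), Hmgn2 (0.37) and Ctla2a (0.35), and Nek6 most like Fkbp1a (0.43), Zfp422 (0.42) and Lsp1 (0.41), over the 172 cells. For Akr1b10 and Angel1 no gene exceeded a rho of 0.30 over all cells. Over the 42 P2+ CMPs the rho was 0.48 for Msra with Ldhb, 0.56 for Msra with Hmgn2, 0.57 for Nek6 with Lsp1 and 0.50 for Angel1 with Spats2. Over the 27 P2- CMPs the same pairs had 0.03, -0.21, 0.13 and 0.11. The other pairs listed for these genes had no common direction. Over P2+ and P2- CMPs, Nek6 had 0.40 and 0.31 with Fkbp1a and 0.13 and 0.42 with Zfp422. Angel1 had 0.20 and 0.30 with Poc1b and 0.38 and 0.01 with Gm17709, and Msra had 0.04 and 0.15 with Ctla2a. Over P2+ CMPs alone, Nek6 had a rho of 0.40 with the sum of stem and multipotent genes, and those of Il12a, Msra and Akr1b10 with it were -0.10, 0.02 and -0.20.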

How the data were processed

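Smart-Seq2 libraries of single cells were sequenced, and per the labels and the methods the authors trimmed reads with Trimmomatic 0.36, aligned them with STAR 2.4.2a to GRCm38 with ERCC sequences and counted exons of GENCODE M12 with HTSeq 0.6.1p1 without strand. Raw counts of each gene in each cell were deposited, with unmapped reads as a percent of reads. The deposited tables of cell and gene annotation supplied the other values. Of uniquely mapped reads, 25.6% were ambiguous between genes and 7.40% fell on none, and neither was used.

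Groups came from the labels. The CMP labels low and high were read as P2- and P2+, 1 P2- CMP whose subtype label names MEPs was kept as a CMP, and the labels give no plate. Cells with under 250000 reads, over 25% unmapped or over 15% ERCC reads were removed, which left 172 of 175, with 571806 to 2827426 reads each. No pair of cells held identical counts (0 pairs). CPM, ratios, intervals, thinning and Spearman rho were computed with numpy 2.4.6, pandas 2.3.3 and scipy 1.17.1, checked on simulated counts. A population at 0 reads was set to 3 for ratios. PCA used log2(CPM + 1) of genes of mean count at least 1. With 1 pooled sample per population there was no test. Exon positions came from GENCODE vM21 and start sites from RefSeq (GRCm38.p6). Entries were found for 5 of the 7 genes.

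The genes, the lists and the settings were chosen with earlier results of these data known. Genes named are the 7, those of the lists, their nearest neighbours with a read, the 5 of highest CMP ratio and the 3 most like each over cells. Txndc12 and Akr1b8 as a paralog were named after their values were seen. A gene that these rules name is not reported here. Alternatives were equal weight per cell, DESeq2 1.42.0 size factors in R 4.3.3, all deposited cells, another denominator, the conflicting cell or the top cells left out, other thinning depths and minimum reads, and other gene filters.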

Additional observations from a re-analysis of the deposited data

Results flagged for a closer look

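Nek6 and Angel1 were picked out because P2+ over P2- pointed one way in CMPs and the other way in MEPs. For Nek6 the log2 ratio was 1.69 in CMPs and -0.53 in MEPs, and for Angel1 it was 2.74 in CMPs and -0.30 in MEPs. Without the top P2- MEP, the Angel1 value in MEPs was -0.11 and, with its own top P2- MEP left out, that of Nek6 was -0.44. With 1 pooled sample per population the difference between the contrasts was not tested for either gene. The pooled levels in P2+ and P2- MEPs were 13.4 and 19.3 CPM for Nek6 and 9.09 and 11.2 CPM for Angel1.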

How the results depend on the processing

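The number of genes with a log2 ratio of at least 1 was 5 of 7 in CMPs under every alternative tried. In MEPs it was 3 of 7 under all but 1, chosen after seeing the data: without the top cell of the higher population only, Tmem176a fell to 0.14 and the count to 2 of 7. The sign turned for Msra in MEPs alone, from 0.15 to -0.13 with equal weight, to -0.066 with DESeq2 size factors, to -0.12 without the top cell of both populations and to -0.32 without that of the higher population only. In CMPs the range over these settings was 1.87 to 2.47 for Il12a, 1.88 to 2.16 for Msra, 1.35 to 1.91 for Akr1b10, 1.37 to 1.88 for Nek6, 2.02 to 7.75 for Angel1, 0.38 to 0.53 for Tmem176a and 0.55 to 0.76 for Tmem176b. In MEPs the lower bound of Il12a was between 7.29 and 7.90 and Tmem176a between 0.14 and 2.48. The fewest reads stood behind Il12a in P2- MEPs (0, which leaves a lower bound), Angel1 in P2- CMPs (55) and Tmem176a in P2- MEPs (130).

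The share of all genes at a log2 ratio of at least 1 was between 1.02% and 1.51% in CMPs and between 3.44% and 4.47% in MEPs under the filter on detection and level, and 17.4% and 20.4% without that filter, among genes with at least 10 reads, where many have few reads. With a minimum of 5 reads in place of 1, the share of P2+ CMPs was 50% for Il12a, 45.2% for Msra, 38.1% for Akr1b10, 54.8% for Nek6, 11.9% for Angel1, 66.7% for Tmem176a and 100% for Tmem176b, and that of P2- CMPs was 18.5%, 14.8%, 14.8%, 11.1%, 3.70%, 63% and 77.8% for the same genes in that order. No paired analysis was possible because each population is 1 pool and cell numbers pair no cells.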

Other observations

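Beside the 7 genes, the 5 genes of highest ratio in CMPs included Gng11, at 90.5 CPM in P2+ and 28 CPM in P2- CMPs. Coro2a, an actin-binding protein gene and the second most like Il12a over cells, was at 1.11, 5.99, 15.8 and 48.2 CPM in the order used above. Ctla2a, a cysteine protease inhibitor gene listed for both Il12a and Msra, was at 13.5, 106, 278.7 and 604 CPM in the same order. Lsp1, listed for Nek6, had 0 CPM in both MEP populations and 209.3 and 172 CPM in P2- and P2+ CMPs. These genes were named by likeness over the same cells and no test was made.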
